A study of Drosophila melanogaster with 2 samples.

Results

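Binding of the transcription factor NFAT near the genes of the basal transcription machinery was examined in whole Drosophila melanogaster embryos. The members were all protein-coding genes whose symbol begins with MED and a digit (subunits of the Mediator complex), with Taf and a digit (TBP-associated factors, TAFs) or with TfII (general transcription factors of RNA polymerase II). The rule found 49 members among 13968 protein-coding genes on the chromosome arms: 25 Mediator genes, 15 TAF genes and 9 TFII genes. It uses symbols only, so subunits with other names, such as ix (MED29), the kinase module and the TATA-binding protein, are not members.

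The single group consisted of whole embryos of 0 to 24 h, of the strain NFAT-GFP, which carries an insertion targeting NFAT and makes a fusion of NFAT with enhanced GFP (NFAT-eGFP). Sheared chromatin was precipitated with an antibody against GFP and sequenced (ChIP-seq), in 2 biological replicates, and the labels do not say how the replicates were separated beyond that word. Sex was not recorded, no other genotype was analysed here, and the labels do not state which promoter drives the fusion. The transgenic fusion, not the untagged protein, was followed, and the antibody field of the labels names NFAT as the target. Since whole organisms of all embryonic ages were pooled, binding in few cells and weak binding in many cannot be told apart. The design holds no second condition, so nothing below is a test between conditions.

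Mediator is a large complex that carries signals from DNA-bound transcription factors to RNA polymerase II, and its subunits are grouped into head, middle and tail modules plus a kinase module that can dissociate. TFIID, made of the TATA-binding protein and the TAFs, recognises core promoters. TFIIA and TFIIB then stabilise that complex and bring in the polymerase with TFIIF, while TFIIE and TFIIH open the DNA. Most of these genes are used in nearly every cell. NFAT is the fly member of the NFAT family of Rel-domain transcription factors.

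The measurements were peak lists. A peak was assigned to a gene when its summit, the base of highest signal, lay within 1000 bp of any transcription start site (TSS) of that gene, so 1 peak can be assigned to several genes. The larger of the 2 lists made from both replicates together, thresholded at an irreproducible discovery rate (IDR) of 0.01, gave 4899 peaks on the arms, the conservative list 3909, replicate 1 alone 2236 and replicate 2 alone 3994. Read totals are not in these lists, so the depth behind each peak is unknown, and replicate 2 has the longer list. The signal value of a peak is the authors' own, and it was read only within 1 list, as a value or as the percentile among that list's peaks.

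The DNA under the member summits is shown first for the windows that hold a recurring word. Each window runs 50 bp to either side of the summit and was shortened where it met an exon of a protein-coding gene, and it is printed from 5′ to 3′ on the strand of the member gene. Capitals mark GTTGCCA and the words named with the next windows, on either strand. The words GGAAA and GAGAG, also counted further on, were left in lower case on both strands: GGAAA stands in the printed windows of MED17, Taf9 and TfIIB, and GAGAG in that of MED30. The first 5 windows share GTTGCCA or its reverse complement TGGCAAC.
MED30, chr3L:654260-654360, minus strand: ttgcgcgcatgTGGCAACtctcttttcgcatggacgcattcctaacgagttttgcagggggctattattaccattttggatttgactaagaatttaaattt
MED4, chr3L:7250603-7250703, minus strand: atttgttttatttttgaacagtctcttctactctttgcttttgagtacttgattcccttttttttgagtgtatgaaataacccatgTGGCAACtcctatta
Taf2, chr3L:9888704-9888761, minus strand: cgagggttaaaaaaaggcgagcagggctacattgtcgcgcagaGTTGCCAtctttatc
TfIIB, chr2L:10430921-10431021, plus strand: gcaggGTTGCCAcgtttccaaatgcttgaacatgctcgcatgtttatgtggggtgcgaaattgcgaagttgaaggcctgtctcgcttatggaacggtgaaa
Taf9, chrX:17842077-17842160, plus strand: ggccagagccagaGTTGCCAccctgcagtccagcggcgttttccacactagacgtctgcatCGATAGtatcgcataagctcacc

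The next windows were chosen because they hold TATCGATA, the site of the DREF factor of housekeeping promoters, the overlapping word CGATAG, or CAGTG (reverse complement CACTG). Coordinates are of the dm6 assembly, and the letters are from the Release 6 genome sequence as held by RefSeq.
MED17, chr3R:18188991-18189071, plus strand: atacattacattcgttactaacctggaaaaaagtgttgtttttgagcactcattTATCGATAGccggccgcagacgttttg
Taf8, chrX:18101909-18101969, plus strand: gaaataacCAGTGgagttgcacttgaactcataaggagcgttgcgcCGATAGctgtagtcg
MED7, chr3R:10761062-10761162, minus strand: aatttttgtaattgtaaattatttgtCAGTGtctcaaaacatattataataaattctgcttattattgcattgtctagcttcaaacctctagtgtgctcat
TfIIA-L, chr3R:27253183-27253282, plus strand: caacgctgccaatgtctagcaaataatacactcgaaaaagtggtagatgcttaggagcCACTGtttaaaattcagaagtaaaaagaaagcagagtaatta

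NFAT peaks lay near 16 of the 49 members in the larger list, a share of 32.7% with a 95% Wilson interval of 21.2 to 46.6%. Of all 13968 protein-coding genes, 3709 had a peak (26.6%), a share that lies within the interval of the members. The 3 classes had close shares: 8 of 25 Mediator genes (32.0%, interval 17.2 to 51.6%), 5 of 15 TAF genes (33.3%, 15.2 to 58.3%) and 3 of 9 TFII genes (33.3%, 12.1 to 64.6%). The share of all genes lay inside the interval of the members under 10 of the 12 rules tried for assigning peaks. It lay below the interval under 2, the stronger peaks and the peaks of both replicates, whose values are given further on. The rules overlap and use the same 49 genes, so they are not separate checks. The intervals cover counting error only, and genes that share a promoter with a member are counted in the total as well. A table of peaks carries no error of its own for each gene, so the replicate lists below give the spread.

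In the larger list, the members that did have a peak tended to have a strong one. The strongest peak of each of the 16 members had a median signal of 167, at percentile 80.7 of the list, against 114 and percentile 64.0 for the 3709 genes with a peak. Mediator genes had the highest median, at 228 and percentile 89.2, followed by TFII genes at 146 and percentile 76.6 and TAF genes at 121 and percentile 67.7. Of the 49 members, 15 (30.6%) had a peak in the stronger 50% of the list, with an interval of 19.5 to 44.5%, against 17.2% of all genes, which lies below that interval. In the lists of single replicates the medians stood closer: percentile 54.9 for members against 57.5 for all genes with a peak in replicate 1, and 66.6 for members against 60.3 in replicate 2. The high percentile of the larger list was thus not present in replicate 1 alone. Among the 6 strongest of these peaks, those of MED30, TfIIA-L, MED27 and MED19 had a neighbour's TSS nearer than the member's. Those of MED17 and MED6 had the member's TSS nearer. An opposite-strand TSS upstream within 1000 bp was also more common among members (73.5%) than among all genes (36.2%). A comparison of signal among genes of like arrangement is not given here.

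**Figure D1:**
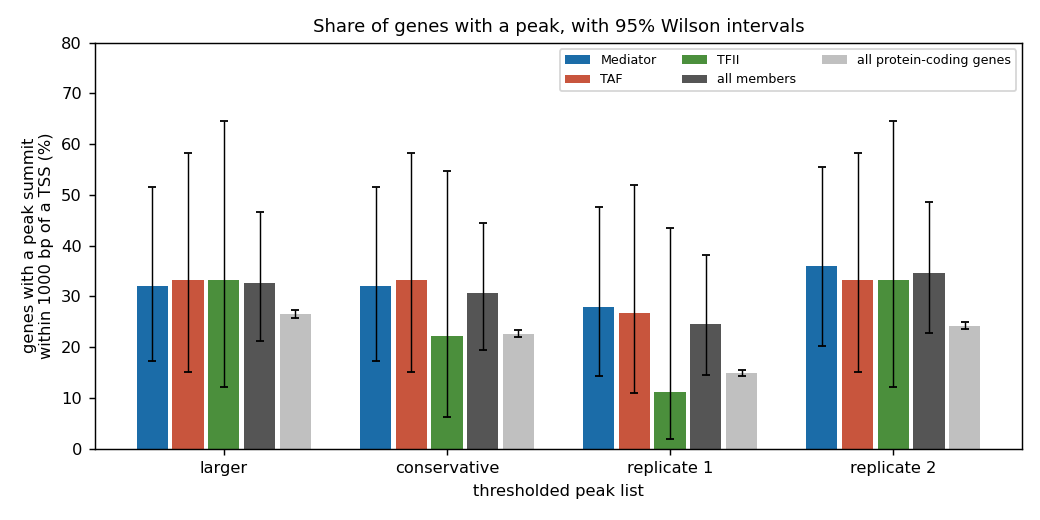
Percent of genes with a peak summit within 1000 bp of a TSS (vertical axis) in each of 4 thresholded lists (horizontal axis), for Mediator, TAF and TFII genes, all members and all 13968 protein-coding genes. Bars are shares and error bars are 95% Wilson intervals. In the larger list the members stand at 32.7% and all genes at 26.6%, inside the interval of the members.

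Among the head subunits of Mediator, 3 of 8 genes had a peak in the larger list (37.5%), against 26.6% of all genes. These included the strongest of all members. With so few genes in each module, nothing is read from the differences between the modules. MED30, which budding yeast lacks, was counted here with the head. It had a peak at chr3L:654235-654399 with a signal of 347 in the larger list, 152 in replicate 1 and 198 in replicate 2. Its percentile was 95.6 in the larger list, and the summit lay 221 bp upstream of MED30 and 53 bp upstream of Rev1, a DNA repair polymerase gene on the other strand. Both replicates thus held it among their stronger peaks.

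MED17, the scaffold of the head, had a peak at chr3R:18188958-18189115 with 289 in the larger list, 87.0 in replicate 1 and 209.6 in replicate 2, and its summit was 31 bp upstream of the TSS. The TSS of CG12321, on the other strand, lay 334 bp from that summit. MED17 had the highest signal of any member in replicate 2, and its replicate summits were 1 bp apart. MED6, a conserved head subunit, had 212 in the larger list, 60.7 in replicate 1 and 145 in replicate 2 at chr3R:9767749-9767860. Its summit was 2 bp upstream of a MED6 TSS, 17 bp from that of Naa80, the gene of an N-terminal acetyltransferase, and inside the 5′ UTR of another MED6 transcript. The TSSs of MED6 and Naa80 are only 19 bp apart, so the peak cannot be given to 1 of them. The other head genes, MED8, MED11, MED18, MED20 and MED22, had none.

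Among the middle subunits, 3 of 9 genes had a peak in the larger list (33.3%), MED19, MED4 and MED7. MED19 was the only member with more than 1 peak there, 1 of 16 (6.25%), against 762 of the 3709 genes with a peak (20.5%). Its stronger peak, at chr3L:17847009-17847118, had a signal of 244 in the larger list, 66.7 in replicate 1 and 176 in replicate 2, but its summit lay 576 bp upstream of MED19, 41 bp inside the 5′ UTR of the neighbour CG7430. The weaker one, at chr3L:17846375-17846658, was 16 bp upstream of MED19 and had 99.5 in the larger list, 37.9 in replicate 1 and 67.2 in replicate 2. The stronger signal of the pair was thus the one at the neighbour's start.

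MED4 was the only Mediator gene with a peak that no other protein-coding gene shared. The peak, at chr3L:7250511-7250794 and 126 bp upstream, had 188 in the larger list, 75.4 in replicate 1 and 116 in replicate 2. MED7, which forms the hinge of the middle module with MED21 in yeast, had 126 in the larger list, 45.4 in replicate 1 and 84.3 in replicate 2, at chr3R:10760970-10761253, 80 bp upstream. The neighbour on the other strand of MED7 is Cap-H2, a condensin subunit gene, 278 bp away from TSS to TSS. MED21 itself had no peak, and neither did MED1, MED9, MED10, MED26 or, in this list, MED31.

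Among the tail subunits, which in yeast and mammals take up contacts with activators, 2 of 8 genes had a peak in the larger list (25.0%). MED27 had 289.6 in the larger list, 121 in replicate 1 and 169 in replicate 2, at chr3R:5654908-5655061. Its summit, 154 bp upstream, lay between MED27 and elm. MED16 had 104 in the larger list and 60.3 in replicate 2, at chr2R:22182950-22183233, 46 bp upstream. In replicate 1 it stood only in the unthresholded list of ranked peaks, with 40.9. The TSS of CG11170, on the other strand, lay 213 bp from the MED16 summit. MED27 and MED16 stood at percentiles 93.8 and 58.6 of the larger list, so the tail held a strong and a middling peak. MED14, MED15, MED23, MED24, MED25 and MED28 had none in the thresholded lists.

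**Figure D2:**
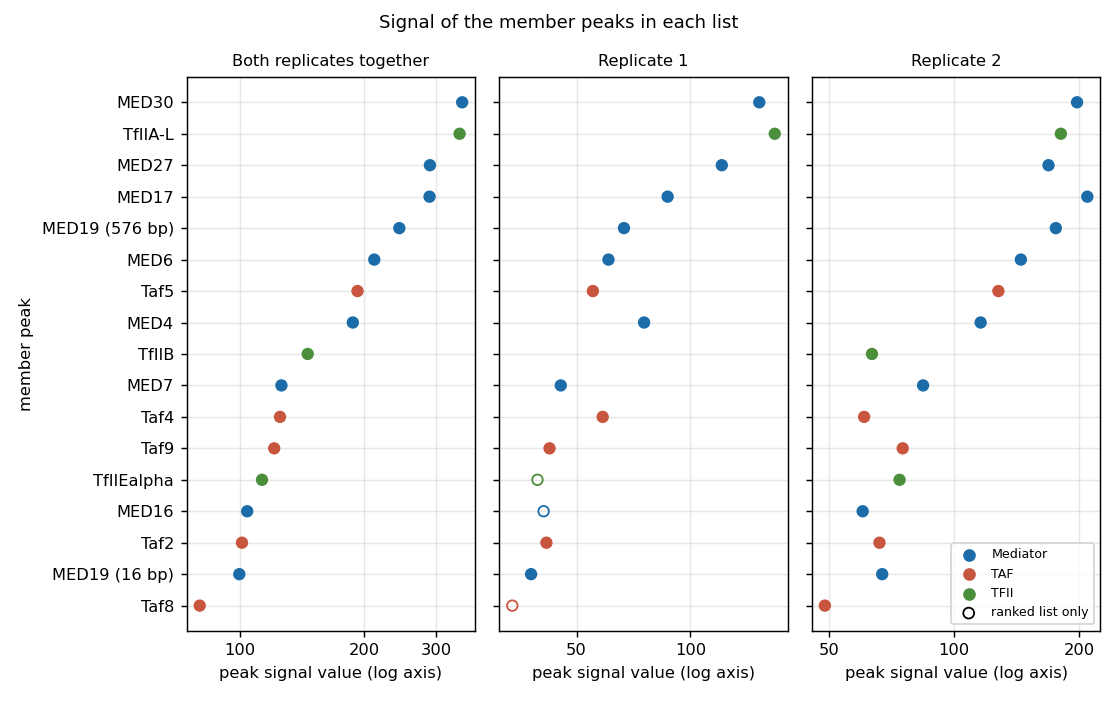
Signal value of each of the 17 member peaks (horizontal axes, log scale, in the authors' unit) in the larger list of both replicates together, in replicate 1 and in replicate 2, with colours for the class and open circles for peaks that stand only in the ranked list of that replicate. The order is that of the larger list, from MED30 at 347 to Taf8 at 79.7. TfIIB has no point in replicate 1.

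Among the TAFs, the peaks were close to the TSS and of middling signal. Taf5, the WD40-repeat scaffold of TFIID, had the strongest, with 193 in the larger list, 55.2 in replicate 1 and 128 in replicate 2, at chr2R:10879638-10879921, 107 bp upstream. Pex6, a gene of peroxisome assembly, starts on the other strand 301 bp away. Taf4, a histone-fold core subunit, had 125 in the larger list, 58.6 in replicate 1 and 60.8 in replicate 2, at chr3L:16113552-16113835, 96 bp upstream of 1 Taf4 TSS and in an intron of a longer Taf4 transcript.

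Taf9, a histone-fold subunit also found in the SAGA coactivator, had 121 in the larger list, 42.4 in replicate 1 and 75.3 in replicate 2, at chrX:17841985-17842268, 34 bp upstream and with no neighbour. Taf2, which contacts the initiator element, had 100.6 in the larger list, 41.6 in replicate 1 and 66.2 in replicate 2, at chr3L:9888612-9888895. Its summit was 71 bp upstream of Taf2 and 8 bp from the TSS of CalpB, a calpain protease gene, so CalpB is the nearer gene. Taf8, a histone-fold subunit, had the weakest peak of all members, with 79.7 in the larger list and 48.9 in replicate 2, at chrX:18101817-18102100, 11 bp upstream. In replicate 1, Taf8 had only a ranked peak of 33.8. The TSS of Mvb12, on the other strand, lay 645 bp from the Taf8 summit of the larger list.

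Of the TAF genes without a peak, Taf1, the largest subunit, had its nearest larger-list summit 10565 bp away. Taf10, Taf10b and Taf12 lay just outside the window, with summits 1764, 1719 and 1449 bp away, as did MED20 at 1195 bp. The members with a peak whose nearest summit was farthest away were TfIIB at 367 bp and MED30 at 221 bp.

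Among the TFII genes, 1 of the 3 TFIIA genes, the single TFIIB gene and 1 of the 2 TFIIE genes had a peak, and neither TFIIF gene nor TfIIS did. TfIIA-L, the gene of the large TFIIA precursor, had 342 in the larger list, 167 in replicate 1 and 181 in replicate 2, at chr3R:27253158-27253327. This was the strongest member peak of replicate 1. The summit was 198 bp upstream of a TfIIA-L TSS, in an intron of a longer TfIIA-L transcript, and 50 bp upstream of pll, the kinase gene pelle of the Toll pathway.

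TfIIB, which brings RNA polymerase II to the promoter, had 146 in the larger list and 63.5 in replicate 2, at chr2L:10430829-10431112, and replicate 1 held not even a ranked peak there. Its summit lay 367 bp from TfIIB and 53 bp from Bug22, a gene of cilia, and it was the only member peak of the larger list that the conservative list did not hold. TfIIEalpha, a subunit of the factor that recruits TFIIH, had 113 in the larger list and 74.0 in replicate 2, at chr3L:11681814-11682097, 82 bp upstream. In replicate 1 it had a ranked peak of 39.4 with a −log10 IDR of 1.91, just under the limit of 2. Of the TFII genes, only TfIIA-L was in the thresholded lists of both replicates.

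Every member peak lay upstream. In all 16 members with a peak the summit of the strongest one was on the upstream side of the nearest TSS of that member (100%), against 79.7% of all genes with a peak. The median distance from the TSS was 89.0 bp, against 130 bp. Within 200 bp of the TSS lay 13 of the 16 (81.2%), against 60.7%, and within 500 bp 15 (93.8%), against 82.7%. With the annotation, 13 of the 17 peaks were intergenic, 2 intronic and 2 in a 5′ UTR.

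Most of these summits lay between genes that start back to back. A protein-coding TSS on the opposite strand lay within 1000 bp of the strongest summit in 12 of the 16 members (75.0%), against 56.4% of all genes with a peak, and a further TSS on the same strand in 0 of 16, against 9.17%. The member was the nearer gene for 10 of the 16 (62.5%), against 69.7%. MED30, TfIIA-L, MED27, TfIIB and Taf2, and MED19 for its stronger peak, had the neighbour nearer. When each summit was given only to the protein-coding gene with the nearest TSS, 11 members kept a peak (22.4%, interval 13 to 35.9%), against 19.7% of all genes. MED19 is the 11th, through its second peak.

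**Figure D3:**
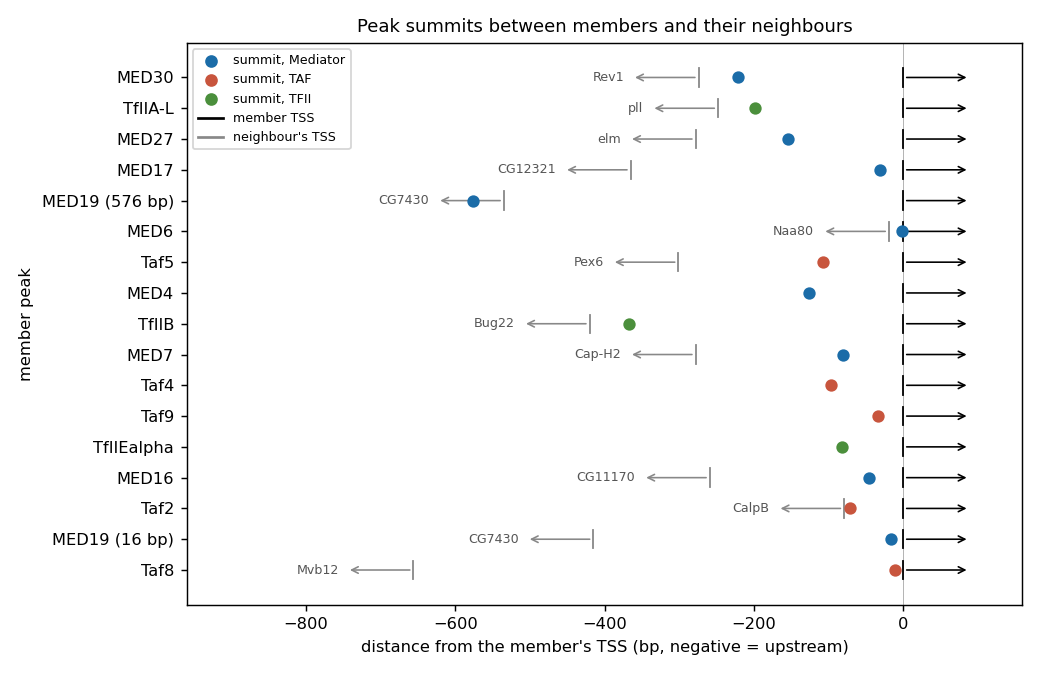
Position of each member peak's summit (coloured points) relative to the member's TSS at 0, in bp with negative values upstream, with black arrows for the member and grey arrows for the neighbour on the opposite strand. The points lie between 2 and 576 bp upstream, and for most of them a grey start site stands on the other side.

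The back-to-back arrangement was common among members with or without a peak. An opposite-strand TSS upstream within 1000 bp was annotated for 36 of the 49 members (73.5%), against 36.2% of all genes, with 19 of 25 Mediator, 12 of 15 TAF and 5 of 9 TFII genes among them. Of these 36, 13 had a peak (36.1%), against 43.9% of all genes of that arrangement. Of the other 13 members, 3 had a peak (23.1%), against 16.7%: MED4, Taf9 and TfIIEalpha. Among genes of like arrangement the members' share was therefore lower than that of all genes in the first case and higher in the second, with few members behind each. This split was made after the positions were seen.

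The 6 strongest member peaks were also the 6 shortest. Those of MED30, TfIIA-L, MED27, MED17, MED6 and the stronger one of MED19 were under 200 bp long, with signals of 212 or more, and the 11 others were 200 bp or longer, with signals up to 193. The lengths ran from 110 to 284 bp. In the larger list as a whole, 12.7% of peaks were under 200 bp. The share among its peaks of like signal is not given here, so nothing particular to the members is read from these lengths.

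Replicate 2 held every member that replicate 1 held, and 5 more. In replicate 1, 12 members had a peak (24.5%, interval 14.6 to 38.1%), against 15.0% of all genes, and in replicate 2 it was 17 (34.7%, interval 22.9 to 48.7%), against 24.2%. The conservative list held 15 (30.6%, interval 19.5 to 44.5%), against 22.7%. All 12 of replicate 1 were among the 17 of replicate 2, so 24.5% of members were in both lists (interval 14.6 to 38.1%), against 14.3% of all genes, just below the interval. The 5 found in replicate 2 only were MED16, MED31, Taf8, TfIIB and TfIIEalpha. Among all genes, 2098 had a peak in replicate 1, 3378 in replicate 2 and 1999 in both. Most genes of replicate 1 were thus also in the longer list of replicate 2, and the overlap is not particular to the members. By class, replicate 1 held 7 Mediator, 4 TAF and 1 TFII genes, and replicate 2 held 9, 5 and 3.

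For the 13 member peaks that both thresholded lists held, the replicate summits were 1 to 40 bp apart, with a median of 20 bp. The percentile within the list was higher in replicate 2 for 11 of the 13 and higher in replicate 1 for 2. It ran from 6.95 to 93.5 with a median of 51.9 in replicate 1, and from 42.2 to 94.6 with a median of 84.9 in replicate 2. The lists differ in length, so these percentiles have different bases.

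MED31, a small middle subunit, passed in replicate 2 alone, on a weak peak. Its signal there was 6.67, at percentile 0.613, with a −log10 IDR of 2.66 and a summit 24 bp from the TSS. A stronger ranked peak of replicate 2, with 21.9, lay 842 bp from the TSS and had a −log10 IDR of 0.259. No ranked peak of both replicates together was assigned to MED31.

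Both MED15 and TfIIA-S had a strong ranked peak past the IDR limit that every thresholded list left out. TfIIA-S, the gene of the small TFIIA subunit, had a ranked peak at chr3R:23891068-23891180 with a signal of 246 for both replicates together, 73.3 in replicate 1 and 173 in replicate 2, 61 bp upstream of its TSS. Only 444 of the 4899 peaks of the larger list were higher. MED15, the tail subunit that binds activators in yeast, had 242 for both together, 94.3 in replicate 1 and 146 in replicate 2 at chr2L:472419-472510, 581 bp upstream and shared with CG4297. Their −log10 IDR values were 4.97 and 5, the highest value in the list, and each replicate's own values were 3.59 or more, all past the limit of 2.

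Such omitted peaks numbered 177 on the arms, of which 105 were on 3R and 46 on 2L, with a median signal of 99.4. They lay near 102 genes (0.730%), and MED15 and TfIIA-S were the 2 members among them. Counting these peaks too, 18 members had a peak (36.7%, interval 24.7 to 50.7%), against 27.2% of all genes. Within 20 kb of the MED15 peak lay 5 other omitted peaks, the highest with a signal of 1562, and near that of TfIIA-S there were 0. Per the deposited file descriptions, the thresholded lists were derived with 1 input file more than the ranked ones; what that file holds is not stated there, and its part in the omission was not tested.

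**Figure D4:**
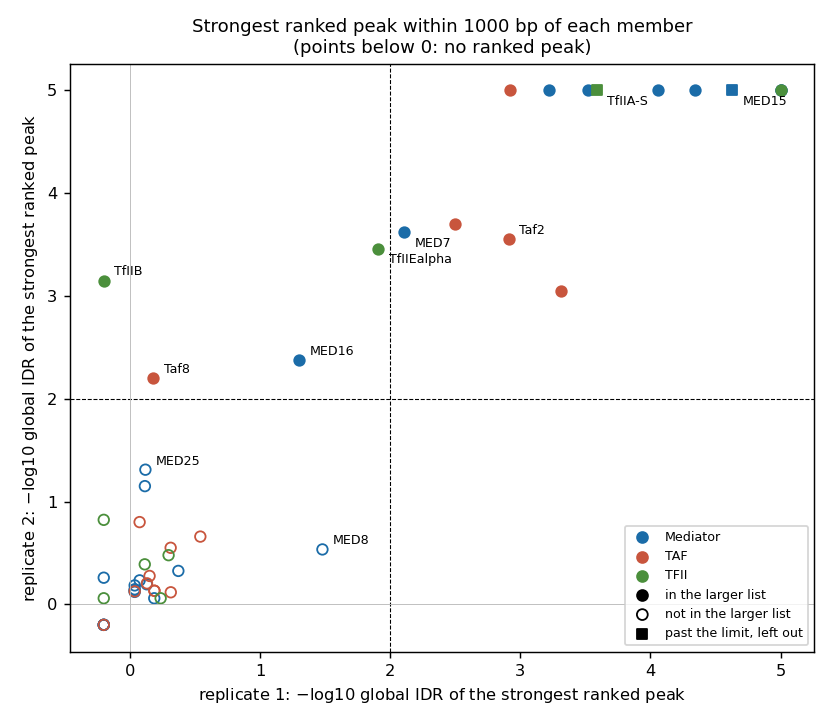
The −log10 global IDR of the strongest ranked peak within 1000 bp of each member, in replicate 1 (horizontal axis) and replicate 2 (vertical axis), with dashed lines at the limit of 2 and points below 0 for members with no ranked peak. Filled circles have a peak in the larger list, open circles have none, and squares are MED15 and TfIIA-S, which sit at 5 in replicate 2 and past the limit in both replicates.

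Most of the other members had a weak ranked peak, as did most genes. In the ranked list from which the larger list is drawn, 43 members had a summit within the window (87.8%), against 86.7% of all genes. In the ranked list of replicate 1 it was 40 (81.6%), against 83.3%, and in that of replicate 2 it was 44 (89.8%), against 88.1%. In the 25 members whose ranked peak did not pass, the signal ran from 10.5 to 58.4 with a median of 31.9, and the −log10 IDR from 0.0976 to 1.88 with a median of 0.271. Nearest to the limit of 2 were MED8 with 1.88, MED25 with 1.33, Taf13 with 1.25 and Taf7 with 1.12. The weak peaks lay a median of 595 bp from the TSS, which is farther than the 89.0 bp of the thresholded ones. Over the 43 members in that ranked list the median was 352 bp, against 333 bp for all genes in it. A value for the weak peaks of all genes is not given here, so nothing particular to the members is read from the 595 bp.

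The weak ranked peaks covered subunits of every module. In the Mediator head, the strongest ranked signal of each gene was 58.4 for MED8, 33.3 for MED20, 28.5 for MED22 and 10.5 for MED18, the lowest of all. In the middle module it was 47.8 for MED10, only 3 bp from the TSS, 27.0 for MED1 and 24.0 for MED9. In the tail it was 44.7 for MED25, 44.5 for MED28, 31.9 for MED14, which joins the modules as the backbone of the complex, 29.1 for MED23 and 22.4 for MED24. All of these lay below the 79.7 of Taf8, the weakest strongest peak of a member in the larger list.

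Among the TAFs the same values were 52.8 for Taf13, 51.4 for Taf11, 48.3 for Taf7, 36.5 for Taf6, the histone-fold partner of Taf9, 36.0 for Taf12L, 23.4 for Taf12 and 19.3 for Taf1. Among the TFII genes they were 25.8 for TfIIFbeta and 24.3 for TfIIFalpha, whose factor escorts RNA polymerase II to the promoter, 25.7 for TfIIA-S-2 and 24.4 for TfIIEbeta. TfIIS, which rescues stalled polymerase, had no ranked peak for both replicates together, and its nearest larger-list summit was 21299 bp away. The partner genes of a factor thus differed in these lists: TfIIEalpha had a thresholded peak of 113 and TfIIEbeta a ranked one of 24.4.

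MED11, MED21, MED26 and Taf3 had no peak in any ranked list. MED26 and Taf3 lie on chromosome 4, where 1 of 80 genes had a peak (1.25%), and the nearest summits were 238297 and 560447 bp away. MED21 lies at chr3L:25114924-25115946, and its nearest summit was 1025783 bp away, while that of MED11 was 23823 bp away. Taf10 and Taf10b, which start back to back, shared 1 weak ranked peak of 50.9. On the other arms, members with a peak numbered 6 of 14 on 3L, 5 of 14 on 3R, 2 of 5 on 2R, 2 of 5 on X and 1 of 9 on 2L, with 25.0 to 28.3% of all genes on these arms.

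Other parts of the same machinery were looked up from lists of symbols. Of the genes of TFIIH, the factor with the helicases that open the promoter, 4 of 10 had a peak in the larger list (40.0%). Ssl1 had 777, shared with its neighbour Chro, mrn (Tfb2) had 214, Tfb4 had 118 and Tfb1 had 95.4. Of the RNA polymerase II subunit genes, 5 of 12 had a peak (41.7%), with Polr2F at 284, Polr2B at 263, Polr2H at 247, Polr2J at 184 and Polr2E at 84.6. The gene of the largest subunit, Polr2A, had none.

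Of the genes for promoter-proximal pausing and elongation, 9 of 15 had a peak (60.0%). These were Nelf-E with 388, in a promoter shared with RpL14, TH1 with 279 and Nelf-A with 223, which encode subunits of the negative elongation factor, as well as Ctr9, spt4, Spt6, Rtf1, hyx and Su(Tpl) with 65.0 to 218. In replicate 1 alone the list held 6 of 15, and in replicate 2 it held 8. Of the Mediator kinase module genes, 1 of 4 had a peak, skd (MED13) with 228 at 441 bp. Of the TATA-binding protein family and the testis TAFs, 2 of 7 did: Trf2 with 211, at 758 bp and shared with lawc, and Tbp with 56.7 at 499 bp. Tbp, the gene of the TATA-binding protein itself, passed in the larger list only. Against the 26.6% of all genes, these are counts from short lists and nothing particular to a list is read from them.

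Motif words were counted on both strands within 50 bp to either side of each summit, in the 17 member peaks, in the 3233 peaks assigned to any gene and in all 4899 peaks. CGATAG stood in 4 of 17 member windows (23.5%), those of MED17, Taf8, Taf9 and the stronger MED19 peak, against 12.9% near a TSS and 9.33% of all peaks. The whole DREF word TATCGATA, which overlaps CGATAG where a G follows, stood in that of MED17 only (5.88%), against 4.83% and 3.25%. The window of the weaker MED19 peak held the M1BP word GGTCACACT, a core promoter word of housekeeping genes, as did 1.86% of peaks near a TSS and 1.31% of all. CAGTG stood in 6 (35.3%), against 31.0% and 30.0%: the windows of TfIIA-L, MED7, MED6, MED16, Taf8 and the weaker MED19 peak.

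The NFAT core word GGAAA stood in 6 of 17 member windows (35.3%), against 26.4% of peaks near a TSS and 26.4% of all peaks. It was found in 27.4 to 27.6% of windows centred 400 bp to either side of all summits, so this short word was about as frequent beside the summits as under them. TATAAA stood in 2 (11.8%, against 11.5% and 11.6%), and GAGAG in 1 (5.88%, against 14.8% and 14.1%). The words CAGCTG and AGGTGGCGC stood in 0 of the 17, against 7.11% and 0.804% of peaks near a TSS and 6.35% and 0.959% of all. The member windows had a median GC content of 40.6%, against 43.6% near a TSS and 43.6% for all. With windows of 100 bp to either side, GGAAA stood in 8 of 17 member windows (47.1%), against 45.2% near a TSS and 45.4% of all. In these longer windows CAGTG stood in 6 (35.3%), against 49.3% and 50.1%, and CGATAG in 5 (29.4%), against 18.9% and 13.8%.

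GTTGCCA was added to the words after the windows had been seen, so its count is a description only. It stood in 5 of 17 member windows (29.4%), those of MED30, MED4, Taf2, Taf9 and TfIIB printed above, against 5.41% of peaks near a TSS and 4.25% of all peaks. In windows 400 bp to the left and right of all summits it stood in 2.16% and 1.65%. With windows of 100 bp to either side it stood in 7 of 17 (41.2%), against 9.40% and 7.88%, the windows of Taf4 and TfIIA-L being added. Taf9 was the only member whose shorter window held both GTTGCCA and CGATAG.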

How the data were processed

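NFAT-eGFP ChIP-seq of whole embryos was read from 8 deposited peak lists in dm6, per the labels. The authors' signal value per peak (coverage or enrichment scale not given in the sources used here) and the deposited −log10 q-value and −log10 global IDR were used within a list only. Names of the aligner and peak caller: not given in the sources used here. Each replicate's lists were derived from that replicate alone, per the deposited file descriptions. Depth is unknown. Peaks off the 7 arms (25 in the larger list) were left out. TSSs of protein-coding genes came from Ensembl release 115 (BDGP 6.54). Shares have 95% Wilson intervals. The assignment of summits to genes was tested on simulated summits placed at known distances from TSSs, and the other steps were not tested in this way. The members, gene lists and words were chosen with earlier results of these data known, and all 49 members were read. Every member is named, with its peak or, without one, its strongest ranked peak or nearest summit; other genes are named where they share a member's peak or belong to a listed group. The word GTTGCCA was added after the windows were seen. With 1 group there was no comparison between conditions. Alternatives were the conservative list, each replicate alone, other windows, nearest TSS, stronger peaks, any base of the peak, the most upstream TSS and, added later, the omitted peaks. A possible control experiment named in the labels and signal tracks were not analysed here. The tools were pandas 2.3.3 with NumPy 2.4.6 under Python 3.11.15, intervals from statsmodels 0.14.6 and matplotlib 3.10.9 for plots.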

Additional observations from a re-analysis of the deposited data

Results flagged for a closer look

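The ranked peak 61 bp upstream of TfIIA-S, with a signal of 246 in both replicates together, and that 581 bp upstream of MED15, with 242, are signals in data outside the thresholded lists: both passed the IDR limit and stand in no thresholded list. Their part in the counts of members is small, 18 members with a peak with them and 16 without them. Why the thresholded lists omit them was not tested.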

How the results depend on the processing

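Of 89 values under alternative choices, 75 stayed close to the value reported and 14 moved. Close was a loose label: 11 members with the nearest TSS only, against 16 as reported, counted as close. So did 6 pausing and elongation genes in replicate 1 alone, against 9 as reported. A median counted as close when it moved by less than the standard deviation of the values of the 2 replicates. The number of members with a peak ran from 11 with the nearest TSS only to 20 with a window of 2000 bp, where all genes stood at 31.7%. With that window the TAF genes with a peak numbered 8 (53.3%) instead of 5, since the summits near Taf10, Taf10b and Taf12 then counted. With the nearest TSS only, 1 TFII gene had a peak instead of 3. Leaving out a replicate gave 1 to 3 TFII genes: 1 without replicate 2 and 3 without replicate 1. The median signal percentile of the members' strongest peaks was 80.7 in the larger list but 54.9 in replicate 1 and 66.6 in replicate 2. No paired analysis was possible because there was 1 group. With 49 members and unknown depth, shares of single classes are coarse. Absence from the thresholded lists was not read as absence of binding. MED15 and TfIIA-S are absent from them and have strong ranked peaks, and whether these peaks reflect binding was not tested.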
